A study of Rattus norvegicus with 18 samples.

Results

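The genes described here encode enzymes and membrane proteins of the lysosome, in tibialis anterior muscle of healthy and dystrophic rats. A fixed list of 31 gene symbols defined the set, and 30 of the 31 had an entry among 30560 in the gene table. No cut on measured values picked the genes, but the list was chosen with earlier results of these data known. Lamp2 had no row under its symbol and is not analysed here. All 30 passed the filter on low counts and were tested in each comparison. The set held 10 cysteine proteases, 3 aspartic or serine proteases, 5 glycosidases, 5 genes of lipid handling, 6 membrane proteins and the progranulin gene Grn.

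The lysosome is the acidic compartment in which cells take apart proteins, glycans and lipids that arrive by endocytosis, phagocytosis or autophagy. Its hydrolases are made as precursors, carried there by sorting receptors and work best at the low pH that the vacuolar proton pump maintains. Lysosomes are abundant in macrophages and osteoclasts, whereas in muscle fibres they serve turnover of organelles and glycogen. Glb1 (ENSRNOG00000010196) encodes the lysosomal beta-galactosidase whose activity at a near-neutral pH is the usual histochemical sign of senescent cells, and Ctsl (ENSRNOG00000018566) encodes cathepsin L, a broad endopeptidase.

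Bulk RNA, taken from sections of frozen tibialis anterior, was sequenced in 18 libraries. The groups at 9 months of age were wild-type (WT) rats with 3 libraries, DMD rats with 3 libraries and p16-null DMD rats with 6 libraries. WT rats of 3 and 18 months gave 3 libraries each. DMD stands for a model of Duchenne muscular dystrophy, in which muscle lacks dystrophin, and the p16-null DMD rats carried the dystrophy genotype plus loss of the cell cycle inhibitor p16. The labels name neither the strain nor the edits, and they give no treatment. Library totals were 9.61 M to 21.99 M estimated counts. Dmd, the dystrophin gene, stood at 114 to 167 CPM (counts scaled to a common library total) in WT muscle of 9 months, at 31.4 to 44.3 in DMD and at 30.9 to 54.1 in p16-null DMD. Cdkn2a, which encodes p16 and Arf, stood at 10.7 to 19.4 CPM in DMD and at 10.1 to 15.3 in p16-null DMD, against at most 0.299 in any WT library. Counts per gene pool both transcripts, so the p16-null label could not be checked. Beyond the sample titles nothing states that libraries came from separate animals, and p-values therefore measure the spread between these libraries, part of which may be technical.

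Many lysosomal genes carry a CLEAR element, a promoter motif built around CACGTG that is bound by the transcription factor TFEB and its relatives. Promoters of 27 of the 31 listed genes were found among RefSeq promoters of the GRCr8 build, each from 250 bases before to 50 bases after the start. The letters CACGTG, which read the same on both strands, occurred in 7 of the 27 (25.9%), namely Cd63, Ctsd, Ctsf, Gaa, Glb1, Lamp1 and Mcoln1. Of all 33469 RefSeq promoters of that build 6.42% held them. The longer TCACGTG, on either strand and overlapping the first motif, occurred in 5 of the 27 (18.5%) against 3.2% of all promoters, and these were Ctsd, Gaa, Glb1, Lamp1 and Mcoln1. The stretches below lie upstream of the start of these 5 genes and of Ctsl, whose window held no match. They are shown because these genes differ widely in their response. They run 5′ to 3′ on the gene's strand, with CACGTG in capitals.
Lamp1, chr16:83075064-83075263 (minus strand): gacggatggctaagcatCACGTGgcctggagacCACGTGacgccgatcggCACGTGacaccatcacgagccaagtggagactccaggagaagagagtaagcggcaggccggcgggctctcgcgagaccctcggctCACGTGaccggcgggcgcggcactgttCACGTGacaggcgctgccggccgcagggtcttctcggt
Glb1, chr8:122963598-122963717 (plus strand): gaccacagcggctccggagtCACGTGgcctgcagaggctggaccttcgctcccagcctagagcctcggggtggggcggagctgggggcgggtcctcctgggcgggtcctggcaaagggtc
Gaa, chr10:105028235-105028354 (plus strand): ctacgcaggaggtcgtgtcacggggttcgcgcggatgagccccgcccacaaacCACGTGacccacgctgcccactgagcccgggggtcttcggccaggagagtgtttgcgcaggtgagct
Ctsd, chr1:206968822-206969001 (minus strand): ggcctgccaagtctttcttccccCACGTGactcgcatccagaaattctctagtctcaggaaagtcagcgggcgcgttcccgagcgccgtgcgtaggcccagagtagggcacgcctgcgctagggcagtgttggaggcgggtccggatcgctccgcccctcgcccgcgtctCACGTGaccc
Mcoln1, chr12:6358138-6358257 (plus strand): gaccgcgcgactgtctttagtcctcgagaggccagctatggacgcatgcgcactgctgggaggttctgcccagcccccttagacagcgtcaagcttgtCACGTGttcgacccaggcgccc
Ctsl, chr17:769984-770103 (plus strand): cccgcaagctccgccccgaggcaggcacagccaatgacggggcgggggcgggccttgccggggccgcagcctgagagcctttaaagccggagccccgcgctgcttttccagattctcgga
Lamp1 thus held 5 matches, which began 183, 167, 150, 65 and 38 bases before the start. The matches of Ctsd began 157 and 10 bases before it, that of Glb1 100 bases and that of Gaa 67 bases before it. Mcoln1 had a match beginning 22 bases before the start and another 5 bases after it, outside the stretch shown. A match describes these letters only and shows no binding.

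Per length, the most abundant of the 30 genes in WT muscle of 9 months were Psap, the precursor of the saposins that assist sphingolipid breakdown, Ctsd, the aspartic protease cathepsin D, and Laptm4a, a small lysosomal membrane protein. Their levels were 493 ± 40.7, 384 ± 36.8 and 327 ± 52.2 TPM (a share of transcripts that accounts for gene length, mean ± SD, n = 3). Cd63, a tetraspanin of lysosomes and exosomes at 325 ± 38.2 TPM, was within the spread of Laptm4a. At the other end stood Gusb, the beta-glucuronidase, at 4.06 ± 0.826 TPM, and Glb1 at 4.22 ± 0.486 TPM. In DMD muscle Ctsb, cathepsin B, led with 844 ± 217 TPM, followed by Cd63 at 833 ± 178 TPM and Psap at 751 ± 167 TPM. The lead of Ctsb over these neighbours was smaller than the spread between libraries. The least abundant there were Ctso, cathepsin O, at 14.3 ± 3.70 TPM and Npc1, the membrane transporter for lysosomal cholesterol, at 15.1 ± 3.65 TPM.

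DMD and WT muscle of the same age, 9 months, were compared to see which lysosomal genes change with dystrophy. Of the 30 genes 19 rose (63.3%) and 2 fell (6.67%) by edgeR's quasi-likelihood test with a Benjamini-Hochberg adjusted p under 0.05. Among all 14801 genes tested 26.4% rose and 21.8% fell. The median log2 fold change was 0.83 over the 30 genes and 0.11 over all genes. Changes ran from a rise of 2.54 for Laptm5 to a fall of 1.14 for Gaa, so the genes did not move as 1 block. All 19 genes that rose had every DMD library above every WT library, as did 95.5% of all genes called higher and 30.7% of all genes tested. In 7 of the 30 genes every DMD library lay below every WT library, as in 25.7% of all genes tested. These were Gaa and Scarb2, which were called lower, and Ctsd, Lamp1, Laptm4a, Mcoln1 and Tpp1, which were not called.

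**Figure D1:**
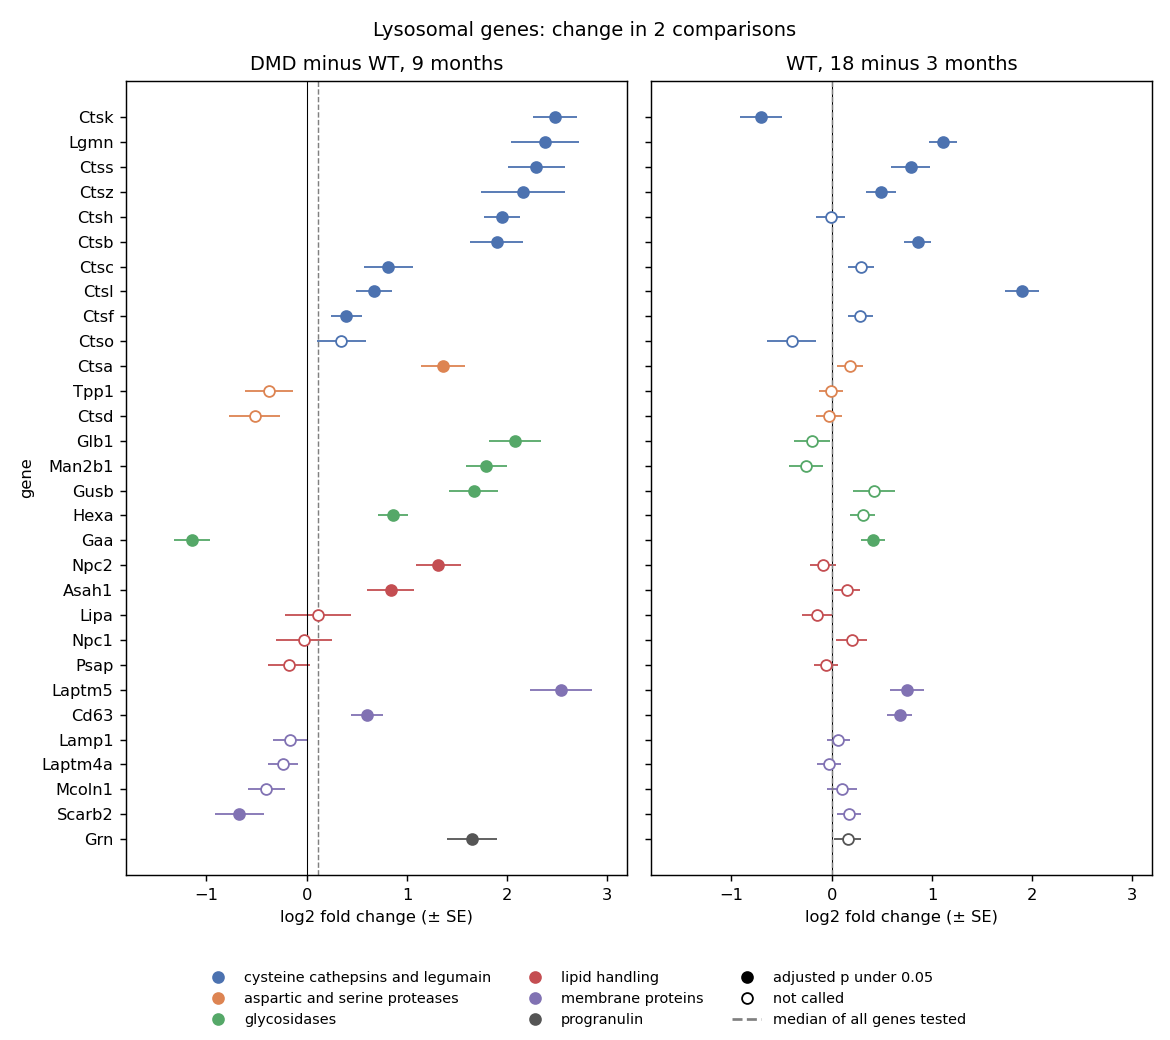
Log2 fold change with its SE of 30 lysosomal genes, grouped by role, in DMD against WT muscle at 9 months (left) and in WT muscle of 18 against 3 months (right). Filled points passed an adjusted p under 0.05, and dashed lines mark the median of all genes tested. Filled points number 21 on the left and 9 on the right.

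Of the cysteine cathepsins and legumain 9 of 10 rose in DMD, with a median log2 fold change of 1.92. Ctsk (ENSRNOG00000021155), cathepsin K, the collagen-cleaving protease best known from osteoclasts, stood at 12.5, 12.6 and 7.996 CPM in the WT libraries. In the DMD libraries it stood at 71.5, 50 and 61.4 CPM, a change of 2.48 ± 0.22 (log2 fold change ± SE, adjusted p = 1.9e-06 by edgeR). Every DMD library was far above every WT library. Ctsh, an aminopeptidase, went from 63.9, 53.2 and 64.5 CPM to 261, 210.4 and 228 CPM (1.95 ± 0.18, adjusted p = 2.4e-06 by edgeR). Its groups lay far apart with little spread inside them.

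Lgmn, the asparaginyl endopeptidase legumain that matures other cathepsins, went from 50.9, 51.2 and 47.5 CPM in WT to 218, 226 and 333 CPM in DMD (2.38 ± 0.34). Ctss, cathepsin S, which processes the invariant chain in antigen-presenting cells, went from 27.3, 28.0 and 30.9 to 145, 97.1 and 178 CPM (2.29 ± 0.29). Ctsz, a carboxypeptidase, went from 24.3, 13.5 and 16.3 to 61.4, 79.1 and 101.02 CPM (2.15 ± 0.42). For each of these 3 genes the lowest DMD library lay above the highest WT library. Ctsb, the most abundant of the group, went from 202, 212 and 198 CPM to 769, 620.5 and 879 CPM (1.90 ± 0.26). The adjusted p-values of these 4 genes ran from 1.9e-05 to 0.00066 by edgeR.

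Ctsl moved less in DMD than Ctsk, Ctsh, Lgmn, Ctss, Ctsz and Ctsb. It stood at 193, 125 and 186 CPM in WT and at 231, 277 and 294 CPM in DMD, a rise of 0.67 ± 0.18 (adjusted p = 0.0059 by edgeR). The lowest DMD library lay above the highest WT library, and WT replicate 2 lay below the other WT libraries. By deposited TPM the change of Ctsl was 1.44, while the median of all genes also stood higher, at 0.68 in place of 0.11. Rodents carry close relatives of Ctsl, among which the authors' counting could share reads, so its level is less certain than that of single-copy genes. Ctsc, the dipeptidyl peptidase that activates granule proteases, rose by 0.82 ± 0.25 (adjusted p = 0.013 by edgeR), and this call was lost without DMD replicate 1 (adjusted p = 0.077). Ctsf rose by 0.39 ± 0.16 (adjusted p = 0.049 by edgeR), a call that was lost in 13 of the alternative settings with an adjusted p of up to 0.18. These included leaving out WT replicate 1 or 2, DMD replicate 1 or 3, or p16-null DMD replicate 1, 2, 5 or 6. Ctso (0.34 ± 0.24) did not pass.

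Of the aspartic and serine proteases 1 of 3 rose. Ctsa, a serine carboxypeptidase that also protects beta-galactosidase in a complex, went from 176, 134 and 148 CPM to 389.7, 348 and 434 CPM (1.36 ± 0.22, adjusted p = 0.00015 by edgeR). The lowest DMD library lay far above the highest WT library. Neither Ctsd (-0.52 ± 0.25, adjusted p = 0.10 by edgeR) nor Tpp1, a tripeptidyl peptidase (-0.38 ± 0.24, adjusted p = 0.21 by edgeR), passed.

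Of the glycosidases 4 of 5 rose and 1 fell. Glb1 stood at 9.74, 9.995 and 10.9 CPM in the WT libraries, at 38.6, 34.3 and 56.1 CPM in the DMD libraries (2.07 ± 0.26, adjusted p = 1.9e-05 by edgeR) and from 26.4 over a median of 43.0 to 61.7 CPM in p16-null DMD. Every dystrophic library thus lay above every WT library of 9 months. Man2b1, the lysosomal alpha-mannosidase, went from 35.1, 25.0 and 33 CPM to 109, 89.6 and 124 CPM (1.79 ± 0.20, adjusted p = 9.2e-06 by edgeR), again without overlap. Gusb and Hexa, the alpha subunit of beta-hexosaminidase, rose by 1.67 ± 0.24 and 0.86 ± 0.15.

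Gaa (ENSRNOG00000047656), the acid alpha-glucosidase that breaks down glycogen in lysosomes and is deficient in Pompe disease, went the opposite way. It stood at 150.2, 127 and 135 CPM in WT and at 69.0, 59.1 and 58.0 CPM in DMD, a fall of 1.14 ± 0.18 on the log2 scale (adjusted p = 0.00011 by edgeR). The highest DMD library lay well below the lowest WT library. By library totals Gaa was still called lower (-0.50, adjusted p = 0.017 by edgeR), and by deposited TPM it was not (-0.37, adjusted p = 0.091 by limma).

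Among genes of lipid handling 2 of 5 rose. Npc2, the soluble carrier that hands cholesterol to Npc1, went from 75.3, 65.4 and 72.2 CPM to 158, 164 and 206 CPM (1.31 ± 0.22, adjusted p = 0.00023 by edgeR). Asah1, acid ceramidase, went from 43.6, 43.5 and 47.4 CPM to 88.5, 51.9 and 99.6 CPM (0.84 ± 0.23, adjusted p = 0.0082 by edgeR). The groups of Asah1 separated narrowly, because DMD replicate 2 lay close to WT. Npc1 (-0.02 ± 0.28), Psap (-0.17 ± 0.21) and Lipa, the acid lipase of cholesteryl esters (0.11 ± 0.33), did not pass, so the pair of Npc genes went apart in these point estimates.

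Of the membrane proteins 2 of 6 rose and 1 fell, with a median of -0.20. Laptm5, a lysosomal membrane protein of blood cells, had the largest change of the 30 genes, from 24.2, 22.2 and 23.5 CPM to 121, 114 and 170.0 CPM (2.54 ± 0.31, adjusted p = 1.5e-05 by edgeR). Its relative Laptm4a, which is made in most cell types, stood at -0.24 ± 0.15 (adjusted p = 0.19 by edgeR). Cd63 went from 229, 193 and 203 CPM to 247, 347 and 352 CPM (0.60 ± 0.16, adjusted p = 0.0061 by edgeR), with DMD replicate 1 close to the WT range.

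Lamp1, the abundant glycoprotein that lines the lysosomal membrane and is used as a marker of lysosomes, stood at 466, 437 and 446 CPM in WT and at 406, 380.5 and 410.3 CPM in DMD (-0.17 ± 0.17, adjusted p = 0.43 by edgeR). Its sign depended on scaling, being positive at 0.48 by library totals and at 0.59 by TPM. Mcoln1, a lysosomal calcium channel, stood at -0.40 ± 0.18 (adjusted p = 0.079 by edgeR). Scarb2, the receptor that carries glucocerebrosidase to lysosomes, went from 78.8, 105 and 83.6 CPM to 60.7, 36.7 and 69.6 CPM, a fall of 0.67 ± 0.24 on the log2 scale (adjusted p = 0.034 by edgeR). That call was lost without WT replicate 2 or 3 or DMD replicate 2, and the sign turned by TPM (0.05). Grn, whose product progranulin is secreted and also cleaved into granulins in lysosomes, rose from 48.1, 49.6 and 42.4 CPM to 152, 112 and 173 CPM (1.65 ± 0.25, adjusted p = 8.0e-05 by edgeR).

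Directions in this comparison are relative to the TMM scale. The median gene stood 0.11 higher in DMD after TMM, 0.76 higher by library totals and 0.68 higher by log2(TPM + 1). By library totals 21 of the 30 genes rose and 1 fell, and over all genes 7691 rose and 1240 fell in place of 3914 and 3228. By log2(TPM + 1) 22 of the 30 rose and none fell, and of all 14475 genes tested 7879 rose and 1045 fell. Npc1, Lamp1, Psap, Laptm4a, Tpp1, Mcoln1 and Ctsd had negative changes by TMM and positive ones by both other scalings. In absolute shares of the transcript pool, the 30 genes summed to 2365 to 2836 TPM in the WT libraries and to 5179 to 7848 TPM in the DMD libraries.

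**Figure D2:**
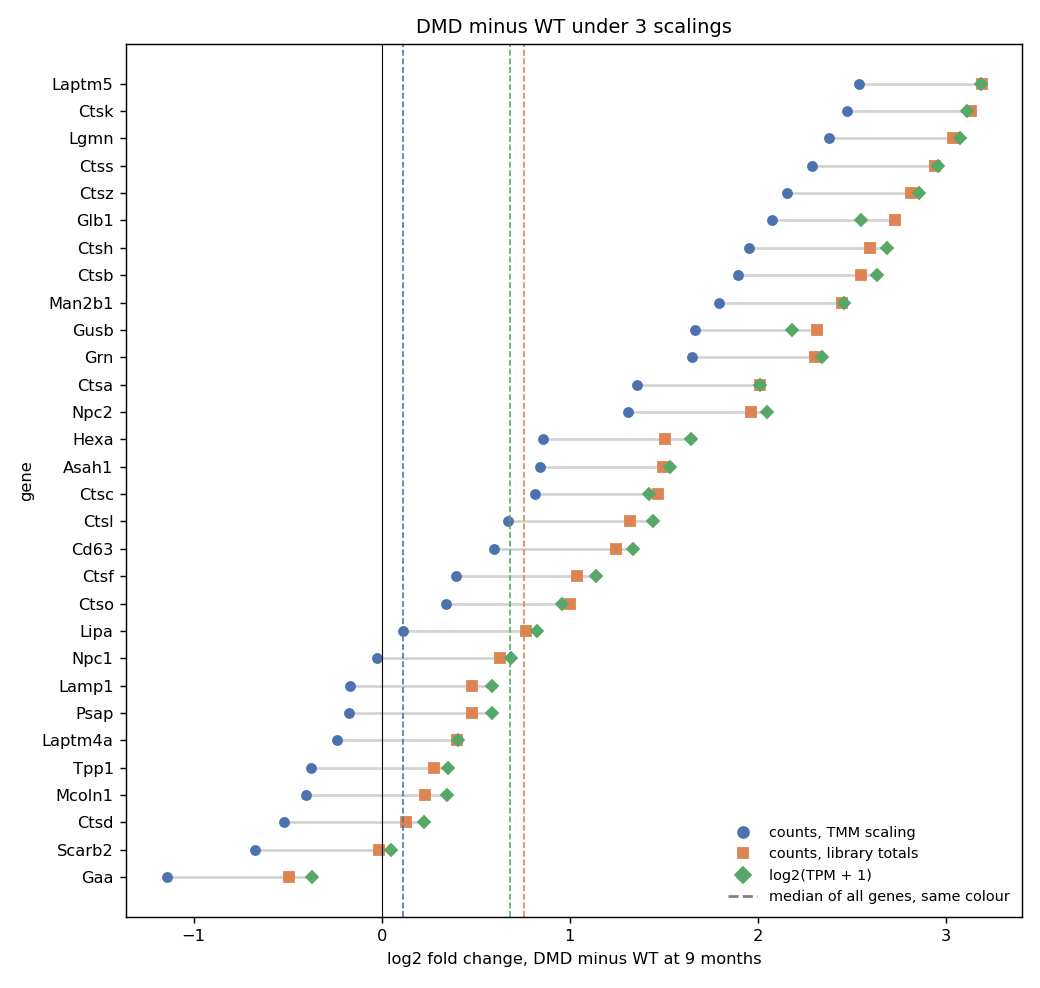
Log2 fold change of 30 lysosomal genes in DMD against WT muscle at 9 months under TMM scaling, library totals and log2(TPM + 1). Dashed lines give the median of all genes in the same colour, at 0.11, 0.76 and 0.68, and the order of the genes changes little between scalings while the zero line moves.

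Markers of several cell types moved with these genes, with counts and medians on the TMM scale unless stated. Of 17 tested macrophage markers all 17 rose in DMD (median 2.59), and the 18 listed ones summed to 478 to 538 CPM in WT, 2812 to 4420 CPM in DMD and 1966 to 5509 CPM in p16-null DMD. Marco was at 0 in all libraries. All 10 fibroblast markers rose (median 1.86; 4129 to 4268 CPM in WT, 12118 to 17660 CPM in DMD), and all 12 muscle fibre markers fell (median -1.77). Among lists of other cells, 6 of 6 tested lymphocyte markers rose (median 3.64), 6 of 8 markers of regenerating fibres (3.58), 5 of 6 adipocyte markers (3.56) and 6 of 8 neutrophil and mast cell markers (2.05). Of 6 endothelial markers 1 fell and none rose, where 3 rose and none fell by library totals. Of 5 satellite cell markers 2 rose and 1 fell (median -0.18). Of osteoclast markers other than Ctsk itself, Acp5 rose by 2.80 ± 0.35 and Calcr, also tested, did not pass. Dcstamp, Ocstamp and Atp6v0d2 were at or near 0 in WT and DMD. In bulk tissue a change in the number of cells of a type and a change of RNA per cell cannot be told apart. The part of these cell types in the changes of the lysosomal genes was not tested.

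Genes around the 30 were read from other lists of the lysosomal system. Of 32 other hydrolases and their cofactors 17 rose and 3 fell (median 0.61), led by Pla2g15, a lysosomal phospholipase (2.10 ± 0.23), the carboxypeptidase Scpep1 (1.91 ± 0.21) and Gm2a, the activator protein of ganglioside breakdown (2.43 ± 0.27). Of 25 other membrane proteins and transporters 11 rose and 4 fell (median 0.14), with Litaf at 2.46 ± 0.31 and Tmem9 at 2.06 ± 0.28. The calcium channel gene Mcoln2 rose by 6.35 ± 0.83, a fitted value that rests on very few WT counts. Of 13 tested subunits of the vacuolar proton pump 1 rose and 3 fell on the TMM scale, whereas 9 rose and none fell by library totals and by TPM. Tcirg1, the subunit typical of osteoclasts, rose by 1.06 ± 0.28 (adjusted p = 0.0060 by edgeR). Sorting and fusion genes split into 5 of 27 higher and 5 lower, against 16 and 0 by library totals, among them Arl8a (1.15 ± 0.17), a small GTPase that moves lysosomes along microtubules, Gga2 (1.09 ± 0.20) and Gga1 (-0.78 ± 0.13).

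Regulators of lysosomal biogenesis had more falls than rises on the TMM scale only, with 2 of 18 higher and 10 lower (median -0.40) against 5 higher and 1 lower by library totals (median 0.24). Rragd, a GTPase that recruits mTORC1 to lysosomes, fell by 2.41 ± 0.27 on the log2 scale and was called lower by library totals (-1.77) and TPM (-1.53) as well. Flcn, the folliculin gene of the same pathway, stood at -1.07 ± 0.18 and passed on the TMM scale only. Tfeb was called lower on that scale (-0.58 ± 0.19, adjusted p = 0.019 by edgeR), and its sign turned by library totals (0.06). Its relative Mitf stood at 0.00 ± 0.17 on the TMM scale and rose by library totals (0.64), and Tfe3 had no entry and is not analysed here. Of 20 autophagy genes 1 rose and 11 fell (median -0.49), against 6 and 2 by library totals (median 0.15). Atg9a fell under each scaling (-1.30 ± 0.15, by TPM -0.53), and the cargo receptor Sqstm1 fell on the TMM scale (-1.08 ± 0.15) and by library totals (-0.44). All 3 tested inhibitors of cathepsins rose, namely Cst3 (1.28 ± 0.22), Cstb (1.15 ± 0.20) and Cst7 (1.80 ± 0.47). Tested genes with CACGTG in the promoter window had a median change of -0.17 (7 genes, TMM scale) and those without it 1.36 (19 genes). This is a description of the letters and values, and Glb1 with a match rose as far as genes without one.

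Muscle of p16-null DMD and of DMD rats was compared to see whether loss of p16 alters these genes in the dystrophic state. None of the 30 genes passed by edgeR, DESeq2 or limma, and none had an unadjusted p under 0.05 by edgeR. Of all 14801 genes 1 passed by edgeR (0.00676%) and 2 were higher and 13 lower by DESeq2. Without DMD replicate 1, 5 genes were higher and 80 lower by edgeR, and again none of the 30 was among them. The log2 differences ran from -0.18 for Man2b1 to 0.46 for Lipa, with SEs of 0.13 to 0.34 and adjusted p from 0.94 to 0.996. All 30 genes had overlapping groups, as did nearly all genes tested. Every p16-null DMD library lay above every DMD library in 1.1% of all genes and below in 0.919%. Glb1 averaged 43.0 ± 11.5 CPM in DMD (n = 3) and 43.4 ± 11.7 CPM in p16-null DMD (n = 6), a difference of 0.01 ± 0.21. Ctsl averaged 267 ± 33 and 257 ± 29.5 CPM, a difference of -0.06 ± 0.15. A p above the threshold does not show that the groups are alike. Differences larger than their SEs also went without a call, such as that of Lipa at 0.46 ± 0.29 (adjusted p = 0.95 by edgeR).

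Against WT, p16-null DMD muscle had 19 of the 30 genes higher and 1 lower, where 27.5% of all genes rose and 22.7% fell. This comparison shares its WT libraries with that of DMD, so the values stand side by side only. Glb1 was at 2.09 ± 0.24 beside 2.07 ± 0.26 in DMD, Ctsk at 2.62 ± 0.20 beside 2.48 ± 0.22 and Laptm5 at 2.48 ± 0.29 beside 2.54 ± 0.31. Ctsl was at 0.62 ± 0.16 beside 0.67 ± 0.18. Gaa fell by 0.93 ± 0.15 on the log2 scale beside 1.14 ± 0.18, but did not pass by library totals (-0.33, adjusted p = 0.054 by edgeR) or TPM (-0.18, adjusted p = 0.31 by limma). Scarb2 (-0.39 ± 0.21, adjusted p = 0.13 by edgeR) did not pass. Ctsf stood at 0.42 ± 0.14 beside 0.39 ± 0.16, and lost its call without WT replicate 1 or 2 (adjusted p of up to 0.12).

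The 6 p16-null DMD libraries differed much among themselves. Lgmn ranged from 139 over a median of 253 to 450.5 CPM, Ctsz from 34.4 over 70.4 to 148 CPM and Ctsb from 519 over 735 to 1140.1 CPM. Replicate 1 was the highest for all 3 of these genes. Ctsk was steadier, from 57.0 over 65.8 to 81.8 CPM, and so was Hexa, from 78.4 over 91.5 to 96.3 CPM.

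**Figure D3:**
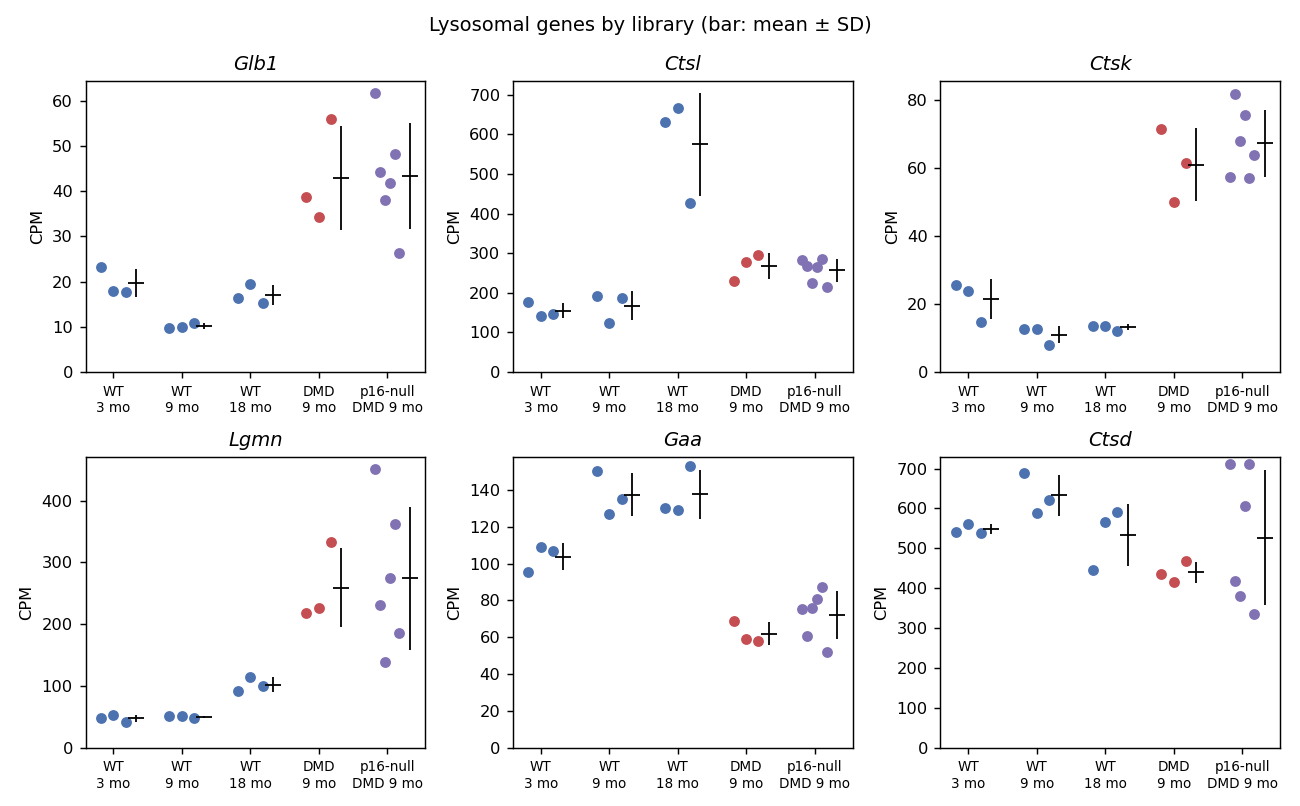
Level in CPM of 6 lysosomal genes in each of 18 libraries, by group, with mean and SD. Glb1, Ctsk and Lgmn are highest in both dystrophic groups, Ctsl is highest in WT of 18 months, Gaa is lowest in both dystrophic groups, and Ctsd overlaps between most groups.

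These libraries were set against the mean log2(CPM + 0.5) of the 18 macrophage markers, which ran from 5.46 in replicate 6 to 6.97 in replicate 1. Of the 30 lysosomal genes 19 had a Pearson correlation of at least 0.8 with that mean over the 6 libraries, where 9.15% of all 14784 genes other than the tested markers did. The median r was 0.87 over the 30 genes and 0.05 over all genes. Lipa followed the marker mean most closely (r = 0.999, exact permutation p = 0.00139, rho = 1, p = 0.00278), together with Laptm5 (r = 0.994) and Ctsb (r = 0.98). Glb1 had r = 0.90 (exact permutation p = 0.00972) and rho = 1 (p = 0.00278), and Ctsl had r = 0.87 (exact permutation p = 0.0319) and rho = 0.94 (p = 0.0167). With 720 orders the smallest p possible is 0.00139. After Benjamini-Hochberg adjustment over all genes none passed, and the adjusted p of the 30 ran from 0.19 to 0.98.

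Not all lysosomal genes went with the markers. Ctsk (r = -0.50), Ctsh (r = -0.35) and Laptm4a (r = -0.66) had negative values, although Ctsk and Ctsh were among the strongest rises in DMD. Mcoln1 (r = 0.03) and Ctsf (r = 0.09) showed almost no relation. Some genes that did not pass in DMD against WT had high values here, namely Npc1 (r = 0.98), Tpp1 (r = 0.97), Psap (r = 0.96) and Lamp1 (r = 0.87). Without replicates 1 and 6, the libraries farthest from the median marker level, 15 of the 19 genes kept r of at least 0.8, and Hexa joined them (0.99 in place of 0.72). In those 4 libraries r was 0.99 for Glb1 and 0.96 for Ctsl, and it fell to 0.49 for Ctss and Asah1 and to 0.41 for Ctsc. The labels give no batch within this group, and the deepest library, replicate 4, had a middle marker level of 5.92.

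**Figure D4:**
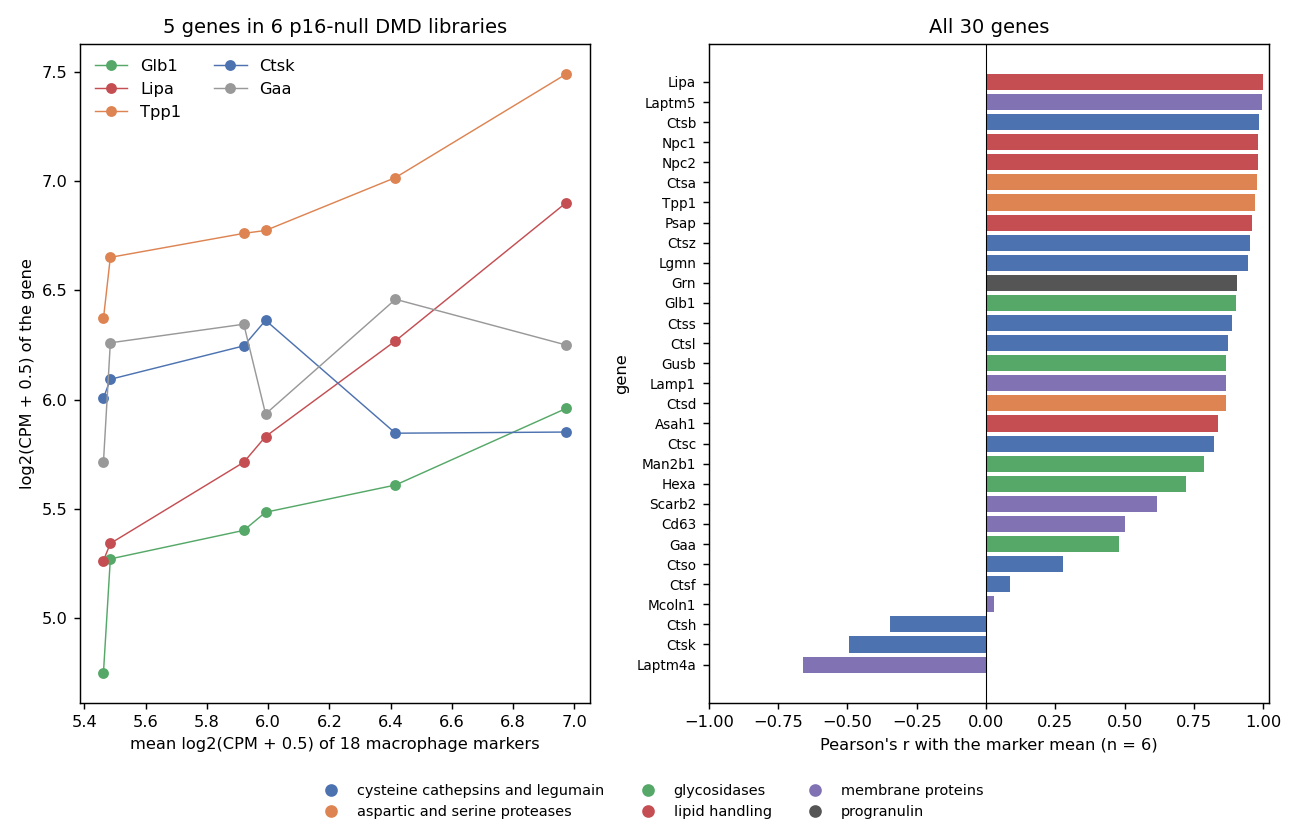
Left, log2(CPM + 0.5) of 5 lysosomal genes against the mean of 18 macrophage markers in the 6 p16-null DMD libraries. Right, Pearson's r of all 30 genes with that mean, of which 19 lie at or above 0.8 and 3 lie below 0.

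The comparison of WT muscle at 18 and 3 months asked which of these genes change with age. Of the 30 genes 8 rose (26.7%) and 1 fell (3.33%), where 9.31% of all 13487 genes rose and 10.1% fell. The median log2 fold change was 0.16 over the 30 genes and 0.0032 over all genes. The rises were Ctsl, Lgmn, Ctsb, Ctss, Laptm5, Cd63, Ctsz and Gaa, so 5 of the 10 cysteine proteases were among them.

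Ctsl changed most. It stood at 176, 142 and 147 CPM at 3 months and at 632, 668 and 427 CPM at 18 months, a rise of 1.90 ± 0.17 (adjusted p = 3.6e-06 by edgeR). Its level in CPM at 18 months was above that of every other library in the series, dystrophic ones included, whose highest was 294 CPM. By deposited TPM the libraries of 18 months ran from 276 to 447 and overlapped DMD, which reached 292. No test was made between these groups. The WT libraries of 9 months, at 125 to 193 CPM, overlapped those of 3 months. Lgmn went from 47.7, 52.8 and 41.7 CPM to 91.3, 115 and 99.7 CPM (1.11 ± 0.14, adjusted p = 7.6e-05 by edgeR), and Ctsb from 233, 185 and 178 to 337, 383 and 355 CPM (0.86 ± 0.13, adjusted p = 0.00048 by edgeR). For both, the libraries of 18 months lay above those of 3 months and below those of DMD.

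Ctss went from 39.1, 31.6 and 21.7 CPM to 44.9, 63.3 and 51.0 CPM (0.79 ± 0.20, adjusted p = 0.011 by edgeR), and Laptm5 from 30.6, 20.0 and 21.3 to 36.6, 43.0 and 40.8 CPM (0.75 ± 0.17, adjusted p = 0.0064 by edgeR). Cd63 went from 143, 145 and 180.1 to 235, 248.9 and 261 CPM (0.68 ± 0.13, adjusted p = 0.0015 by edgeR). In none of these 3 did the age groups overlap. Ctsz went from 20.1, 21.3 and 17.5 to 26.2, 28.6 and 27.7 CPM (0.49 ± 0.15, adjusted p = 0.034 by edgeR), and Gaa from 95.6, 109 and 107 to 130.4, 129 and 153 CPM (0.41 ± 0.12, adjusted p = 0.029 by edgeR). Ctsk was the only gene of the 30 to fall, from 25.7, 23.9 and 14.8 to 13.7, 13.6 and 12.2 CPM (-0.70 ± 0.21, adjusted p = 0.030 by edgeR). The calls of Ctsk, Ctsz and Gaa were each lost without any single library of 18 months, and also without replicate 1 of 3 months. They were lost as well without replicate 2 of 3 months (Ctsk, Gaa) or replicate 3 of 3 months (Ctsz), with an adjusted p of up to 0.40, 0.46 and 0.12 over all settings. Ctss did not pass without replicate 2 of 18 months (adjusted p of up to 0.074).

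Glb1 did not pass with age. It stood at 23.2, 18.0 and 17.6 CPM at 3 months and at 16.5, 19.5 and 15.3 CPM at 18 months (-0.19 ± 0.18, adjusted p = 0.50 by edgeR). Both ages lay above the WT libraries of 9 months, which reached at most 10.9 CPM, so the level showed no steady course over the 3 ages, and no test was made between these WT groups. In the order of mean CPM, Glb1 was highest in p16-null DMD and DMD, whose ranges overlapped, then in WT of 3 and 18 months, which overlapped as well, and lowest in WT of 9 months. The order for Ctsl was WT of 18 months, then DMD and p16-null DMD, which overlapped, then WT of 9 and 3 months, which overlapped.

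The 19 genes that rose in DMD divided by age into 7 that also rose at 18 months, 1 that fell (Ctsk) and 11 that did not pass. The 11 included Glb1, Man2b1 (-0.26 ± 0.17), Ctsh (-0.01 ± 0.15) and Npc2 (-0.09 ± 0.13), each among the clear rises in DMD. Gaa fell in DMD and rose with age on the TMM scale. Its fall did not pass by TPM, and its rise was lost without any single library of 18 months. The 2 comparisons share no library, and the difference between their effects was not tested. Scaling matters here as well. The median gene stood 0.24 higher at 18 months by library totals and 0.30 higher by TPM. By totals 14 of the 30 genes rose and none fell, and by TPM 16 rose and none fell. Over all genes 2609 rose and 652 fell by totals in place of 1256 and 1366, and 2848 rose and 402 fell of 12697 by log2(TPM + 1).

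Cell type markers moved with age too. Of 17 tested macrophage markers 11 rose (median 0.78), and the 18 summed to 470 to 682 CPM at 3 months and 780 to 1135 CPM at 18 months. Fibroblast markers fell in 4 of 10 cases and muscle fibre markers in 10 of 12. Of 5 satellite cell markers 2 rose and none fell (median 0.53). All 8 markers of regenerating fibres rose (median 2.71), from a sum of 104 to 114 CPM to 606 to 662 CPM. Their part in the changes of the lysosomal genes was not tested. In CPM, the 3 libraries of 18 months lay above all DMD libraries in Ctsl and below all of them in the summed macrophage markers. By TPM, Ctsl ran from 276 to 447 at 18 months and from 220 to 292 in DMD, so these ranges overlapped.

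In the wider lysosomal lists the change with age was small. Of 32 other hydrolases 2 rose, Plbd2 (0.74 ± 0.13) and Manba (0.63 ± 0.18). Of 23 tested membrane proteins and transporters 2 rose, Litaf (1.41 ± 0.16) and Tmem9 (1.52 ± 0.33), and 2 fell, Abcb9 among them (-0.9971 ± 0.22). Of 13 proton pump subunits 1 rose, Atp6v1h (0.74 ± 0.14), and of 27 sorting and fusion genes 1, the mannose 6-phosphate receptor gene Igf2r (0.39 ± 0.13, adjusted p = 0.045 by edgeR). Regulators split into 3 of 18 higher, with Fnip2 at 1.05 ± 0.20, and 3 lower, with Rragd at -0.58 ± 0.14, a call that was lost by library totals. Tfeb (-0.30 ± 0.14) and Mitf (0.18 ± 0.15) did not pass. Of 20 autophagy genes 5 rose and 2 fell, and Sqstm1 (1.01 ± 0.13) and Map1lc3b (0.58 ± 0.14) were among those that rose. The cathepsin inhibitor gene Cst7 rose by 3.94 ± 0.24 (adjusted p = 6.2e-08 by edgeR), further than any of the 30 genes, and Cstb by 0.56 ± 0.17.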

How the data were processed

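The values used were RSEM expected counts per gene (estimated counts, 4.5% of them not whole) and TPM values, both as deposited by the authors. The tools RSEM 1.3.3, STAR 2.7.10b, Trimmomatic and FastQC and the build mRatBN7.2 are named per the submitters' processing notes. Annotation release and strand were not given in the sources used here. Of 30560 entries 7162 had no symbol and stayed in the library sizes and fits. TPM depends on gene length and on the most abundant genes of a library.

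Counts were rounded, filtered with filterByExpr and scaled by TMM, and tested by edgeR 4.0.16 quasi-likelihood fits (R 4.3.3), with 14801 genes over the groups of 9 months and 13487 genes over WT of 3 and 18 months. P-values were adjusted over all genes of a fit, and an SE is the absolute log2 fold change over the root of F. TMM factors at 9 months ran from 0.687 to 1.19. Printed CPM used TMM over all 18 libraries, without rounding. Only the edgeR steps were run on simulated counts, in which few genes changed, so that run does not test the choice of scaling.

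The members, gene lists and tests were chosen with earlier results of these data known. Every member is named. Glb1, Ctsl, the 1 or 2 members with the smallest p in DMD against WT per role, and members called lower or called with age are given by library. From other lists up to 3 members with the smallest p are named, plus Tfeb, Tfe3 and Mitf. A result that this rule calls for is not reported here. Correlations were adjusted over all genes in place of the planned adjustment over the members. Alternatives were DESeq2 1.42.0, RLE, library totals, limma 3.58.1 on log2(TPM + 1) or log2(TPM + 0.1) for genes with 1 TPM in 3 libraries, no filter, 5 CPM in 3 libraries, all 18 libraries, only the groups compared, a robust fit, a replicate block and each library left out. Applying 2 other scalings to the lists was chosen after seeing the data. Promoter sequences are from RefSeq (GRCr8), a build other than that of the counts.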

Additional observations from a re-analysis of the deposited data

Results flagged for a closer look

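Scarb2, the glucocerebrosidase receptor, was much lower in 1 p16-null DMD library than in the other 5. Replicate 6 stood at 40.7 CPM and the next lowest library at 66.1 CPM, so the gap took up 0.680 of the range of the 6 libraries, above the critical share of 0.625 for a group of 6. Replicate 6 also had the lowest macrophage marker mean of the group, whose part in this value was not tested. Over the 30 genes 30 groups were examined in this way and 1 stood out, where chance alone marks about 1 in 20.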

How the results depend on the processing

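Counts of genes higher in DMD than in WT (19) stayed within 17 to 22 in every setting, the like count for p16-null DMD against WT (19) within 18 to 27. Over all genes this latter count also rose, from 4073 of 14801 under TMM to 8071 by library totals. It was 8579 of 14475 by log2(TPM + 1). No setting called any of the 30 genes between p16-null DMD and DMD. The age calls of Ctsl, Lgmn, Ctsb and Cd63 held in every setting run, and Laptm5 lost its call only in the fit of all 18 libraries. The other age calls and the calls of lower genes depended on the scaling, the libraries fitted together or single libraries. Lower in DMD (2) became 1 by library totals, 0 with log2(TPM + 1), 0 with log2(TPM + 0.1), and 1 to 2 with each library left out. It became 3 in a fit of all 18 libraries (Mcoln1 added) and 3 with only the groups compared (Ctsd added). Lower in p16-null DMD than in WT (1) became 0 by totals, 2 in a fit of all 18 libraries and 0 and 0 with TPM. Higher at 18 months (8) became 14 by totals, 4 in a fit of all 18 libraries and 16 and 16 with TPM, and 5 to 7 with each library left out, the 5 being without WT 18 months replicate 2. Lower at 18 months (1) became 0 by totals, 0 and 0 with TPM, and 0 to 1 with each library left out. Signs turned positive as follows where the value passed under TMM or under the other setting, leaving out sign changes in which neither value passed. In DMD against WT, Lamp1 was 0.48 by totals and 0.59 and 0.59 with the 2 TPM pseudocounts, Psap 0.59 and 0.59 with TPM, and Scarb2 0.049 and 0.048 with TPM. In p16-null DMD against WT the values by totals and the 2 TPM settings were 0.45, 0.59 and 0.59 for Lamp1, 0.50, 0.63 and 0.63 for Psap, 0.46, 0.62 and 0.62 for Laptm4a, and 0.57, 0.67 and 0.68 for Tpp1, and with TPM 0.39 and 0.41 for Mcoln1. The cause was not tested.

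Replicate numbers gave no sign of pairing, as deviations of same-numbered libraries correlated at -0.21 to 0.10. With so few libraries per group these values cannot exclude a pairing. With a replicate block, 18 genes were higher and 2 lower in DMD against WT, 18 and 1 in p16-null DMD against WT, 0 between p16-null DMD and DMD, and 8 and 1 at 18 against 3 months.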
